A study of Mus musculus with 5 samples.

Results

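Long noncoding RNAs (lncRNAs) are transcripts that encode no known protein, and 8 of them, known as abundant, nuclear or imprinted RNAs in other tissues, were followed in HT22 cells given siRNAs against GAS5. The genes were taken by name from a list of 8 (Malat1, Neat1, Meg3, H19, Pvt1, Miat, Kcnq1ot1 and Rian), and all 8 were found among the 55487 genes of the deposited counts. HT22 is an immortalized line derived from mouse hippocampus, grown here as one line, so a library stands for transfected cells and not for an animal. Cells received 10 nM of siRNA with the transfection reagent INTERFERin and were collected after 48 h, and poly(A)-selected RNA was sequenced. The NC group has 2 libraries from cells given a negative control siRNA, although the treatment field of their labels says untreated. The KD group has 1 library of the GAS5 siRNA210 and 2 libraries labelled with the GAS5 siRNA596. An siRNA lowers the RNA it matches only for some days and in the cells that took it up. The labels do not say whether replicates came from separate cultures, so the tests measure the spread between these libraries, which may be technical.

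Malat1 and Neat1 are transcribed side by side and stay in the nucleus, where Malat1 gathers at nuclear speckles, the stores of splicing factors, and the long form of Neat1 is the scaffold of paraspeckles. Meg3, Rian, H19 and Kcnq1ot1 are imprinted, which means that only the copy from one parent is transcribed. Meg3 and Rian come from the maternal copy of the domain of Dlk1 and Dio3, H19 is the maternal partner of the paternal growth factor gene Igf2, and Kcnq1ot1 is an antisense RNA of the paternal copy that silences its neighbours in cis. Pvt1 is the neighbour of the oncogene Myc, and Miat (also Gomafu) is a nuclear RNA of neurons. Gas5, the target of the siRNAs, is short, spliced and the host of small nucleolar RNAs (snoRNAs) in its introns. Each of these traits is shared with some of the lncRNAs above. H19 is shorter, with 2460 exonic bases against 3760 in Gas5. Meg3, Rian, H19, Pvt1 and Miat are spliced as well, and 13 snoRNA genes lie inside Rian against 10 inside Gas5.

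The libraries held 30660265 to 36492134 counts, and the deposited table of the KD comparison fits 4 of them, without siRNA596 replicate 2 (its mean counts over 15412 genes were matched to within 0.0977%). In that library Gas5 goes against the label, and short genes were higher and long genes lower than in the others. Results are therefore given for the other 4 libraries (2 KD and 2 NC) and then for all 5. Levels are CPM, counts scaled to the library size with TMM factors, and a count of 3 in a library, taken as the floor, is 0.0782 to 0.114 CPM. Gas5 had 90.4 and 76.0 CPM in NC, 59.7 with siRNA210, 65.9 with siRNA596 replicate 1 and 179 in the library labelled siRNA596 replicate 2. Of 10 neuron markers 4 had no count in any library, Nefl, Nefm, Snap25 and Dcx, and Rbfox3 (NeuN) had at most 2, whereas Map2, Tubb3 and Eno2 had 497 to 3336 counts. The listed markers of progenitor cells were Nes, Vim, Pax6 and Sox2. Nes and Vim, both intermediate filaments, had at least 12449 and 97781 counts in each library. Pax6 had 944 to 1894 counts, and Sox2 had 0.

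The 3′ ends of Malat1 and Neat1 are shown because the libraries were selected on poly(A). Both long RNAs end, after cleavage, in a genomically encoded A-rich tract instead of an added tail, and this tract folds back on U-rich motifs into a stabilizing triple helix. The last 11 bases of Neat1-201, the annotated long form of 20771 bases, also occur in Malat1-201, a single exon of 6983 bases. In both lines the second capitals mark these 11 bases and the first capitals mark the longest stretch of the window that is complementary to them, of 11 bases in Malat1 and 10 in Neat1. Sequences are those of the GENCODE transcripts on GRCm38, both from the minus strand.
Malat1, chr19:5795982-5796081: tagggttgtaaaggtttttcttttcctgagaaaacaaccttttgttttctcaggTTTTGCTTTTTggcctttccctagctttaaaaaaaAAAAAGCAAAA
Neat1, chr19:5824708-5824807: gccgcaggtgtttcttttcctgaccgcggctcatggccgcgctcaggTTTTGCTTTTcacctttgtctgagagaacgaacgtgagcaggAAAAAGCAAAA
The tract was read from its letters AAAAAGCAAAA on the given strand of each transcript, and it is held by 618 of 141767 annotated transcripts, or 0.436%, and by 0.241% of lncRNA transcripts. In Neat1-201 the tract ends the annotated transcript. In Malat1-201 a further 292 bases are annotated after it, and these open with the tRNA-like part that is cut off to give the small cytoplasmic RNA mascRNA.
Malat1 after the tract, chr19:5795922-5795981: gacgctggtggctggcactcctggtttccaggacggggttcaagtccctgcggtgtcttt

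Malat1-201 as annotated runs on to a standard polyadenylation signal, and the single annotated Kcnq1ot1 transcript of 93092 bases also ends with one. The last 40 bases of each are shown with the signal AATAAA in capitals, which lies 16 bases before the end in Malat1 and 20 bases before it in Kcnq1ot1. AATAAA or ATTAAA stands in the last 40 bases of 32.6% of all annotated transcripts and of 29.9% of lncRNA transcripts.
Malat1 end, chr19:5795690-5795729: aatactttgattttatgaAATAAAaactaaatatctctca
Kcnq1ot1 end, chr7:143203458-143203497: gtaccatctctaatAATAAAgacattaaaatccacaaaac
Kcnq1ot1 also holds the longest run of A among the 8 lncRNAs, of 41 bases, which lies 23487 bases before its end and is shown because oligo(dT) can bind such a run as it binds a tail. The longest runs in the others were 16 bases in Meg3, 15 in Rian, 12 in Malat1, 9 in Pvt1, 7 in Neat1 and 4 in both H19 and Miat.
Kcnq1ot1 run of A, chr7:143226915-143227015: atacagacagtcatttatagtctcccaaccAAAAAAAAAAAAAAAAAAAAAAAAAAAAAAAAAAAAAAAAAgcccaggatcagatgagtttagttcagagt
No value here separates the forms of a gene, since the deposited counts are per gene.

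The 8 lncRNAs fell into a pair of very high level, a pair of low to moderate level and 4 without a single count. Malat1 (chr19:5795690-5802672, minus strand) had 47315 counts in NC replicate 1, 54236 in NC replicate 2, 45780 with siRNA210, 46688 with siRNA596 replicate 1 and 9541 in the library labelled siRNA596 replicate 2. Neat1 (chr19:5824708-5845478, minus strand) had 36651, 35027, 40111, 36343 and 11176 counts in the same order. Per kb of exon, the NC mean was 198 CPM for Malat1, the highest of all 9911 lncRNA genes in the table, and 47.1 CPM for Neat1, which ranked 6th. The value of Neat1 is taken over the 20771 bases of its long form, while the annotated Neat1-202 has 3004 bases. Pvt1 had 980, 971, 954, 850 and 721 counts, and at 3.8 CPM per kb it ranked 112th. Kcnq1ot1 had 733, 1111, 658, 611 and 151 counts spread over its 93092 bases, which is 0.268 CPM per kb and rank 1205. Per kb the order Malat1, Neat1, Pvt1, Kcnq1ot1 was the same in each of the 5 libraries. Over 4 libraries the ranges of neighbours in that order did not overlap, whereas Malat1 in the library labelled siRNA596 replicate 2, at 51.8 CPM per kb, lay inside the 44.0 to 54.0 CPM per kb of Neat1 in the others. Meg3, Rian, H19 and Miat had 0 counts in each library. A count of 0 allows a level of up to 0.0782 to 0.114 CPM per library, for counting error only, so these RNAs were not detectable at this depth. In bulk RNA, fewer cells with a transcript and less of it per cell cannot be told apart.

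**Figure D1:**
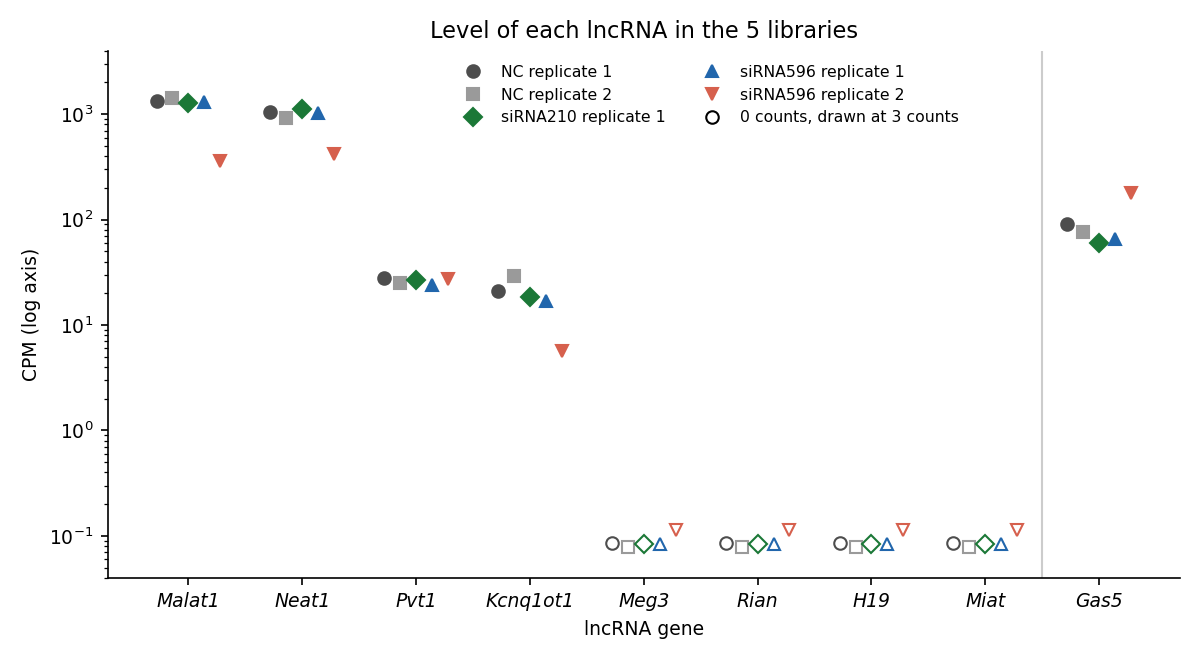
CPM (log axis) of the 8 lncRNAs and of Gas5 in each of the 5 libraries, with filled symbols for measured values and open symbols, drawn at the level of 3 counts, where a library had 0 counts. Malat1 and Neat1 stand at 361 to 1414 CPM, Pvt1 and Kcnq1ot1 at 5.72 to 29.0 CPM, and Meg3, Rian, H19 and Miat at 0 in every library.

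A level of 0 was common among lncRNA genes. It was found for 3885 of 5614 lincRNA genes (69.2%), 41.3% of antisense genes and 38.2% of processed transcripts, against 26.3% of protein-coding genes. Of the 8 lncRNAs 6 are annotated as lincRNA, Kcnq1ot1 as antisense and Rian as processed transcript. For the imprinted members the neighbours in the same domain were therefore counted as well, and the result differed by domain.

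Meg3 (chr12:109541001-109571726, plus strand) and Rian (chr12:109603940-109661716, plus strand) lie 32.2 kb apart in the domain from Dlk1 to Dio3, which spans 828 kb. The maternal copy of this domain gives Meg3, Rian and Mirg, the hosts of a large set of snoRNAs and miRNAs, and the paternal copy gives Dlk1, a Notch-like ligand, Rtl1, a retrotransposon-derived placental gene, and Dio3, which inactivates thyroid hormone. Each of these named genes had 0 counts in each of the 5 libraries. Of the 116 genes annotated in the domain 9 had any count, with 239 counts in all over the 5 libraries. Among all 55487 genes 27363 had a count. None of its 67 miRNA genes and none of its 23 snoRNA genes had a count, but RNAs of that size are mostly lost in such libraries. Over the whole genome 81.93% of miRNA genes and 82.15% of snoRNA genes had no count. Among the 15 coding and lncRNA genes, the 5 with counts were lincRNAs between Mirg and Dio3, of which Gm34719 had the most, with 5, 12, 2, 8 and 6. Outside the domain Begain, the nearest coding gene on the Dlk1 side, 473 kb before Meg3, also had 0 counts in each library. The next gene, Wdr25, 512 kb before Meg3, had 102 to 137 counts, and Ppp2r5c, 875 kb after it, had 3356 to 4162.

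H19 (chr7:142575529-142578143, minus strand) had no count, and Igf2, 72.6 kb away, had none either. The domain from H19 to Ins2 spans 168 kb and holds 10 genes, of which 1, the lincRNA Gm33148, had 2 counts in one library. Mrpl23, a mitochondrial ribosomal protein gene 34.8 kb from H19 on the other side, had 710 to 1636 counts. Miat (chr5:112213228-112229395, minus strand) stands outside the imprinted domains. Its nearest coding genes Cryba4 and Crybb1, which encode lens crystallins, had 0 to 4 counts, whereas Tpst2, a sulfotransferase gene 47.3 kb away, had 2680 to 3645.

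Of the miRNAs annotated inside Meg3 and H19, miR-675 and miR-770 are shown, as examples of the products these transcripts would give, with the seed (bases 2 to 8) in capitals, as RefSeq gives them on GRCm38.p6. H19 exon sequence holds miR-675, whose targets include the Igf1 receptor, and Meg3 holds miR-770 and also miR-1906, which is not shown. The seeds differ from one another. Their genes Mir675 and Mir770 had 0 counts in each library, and mature miRNAs are too short to be measured in this assay.
miR-675-5p, chr7:142577112-142577133, minus strand: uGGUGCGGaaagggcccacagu
miR-675-3p, chr7:142577078-142577099, minus strand: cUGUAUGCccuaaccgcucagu
miR-770-5p, chr12:109563710-109563731, plus strand: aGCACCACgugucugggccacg
miR-770-3p, chr12:109563744-109563765, plus strand: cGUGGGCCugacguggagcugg

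Kcnq1ot1 (chr7:143203458-143296549, minus strand) lies inside Kcnq1, which runs the other way, and in its domain the counts were uneven. The domain from Ascl2 to Nap1l4 spans 582 kb and holds 27 genes, of which 14 had a count, beside 27363 of all 55487 genes. Cd81 and Tssc4, at one end, had 6313 to 8290 and 1163 to 2346 counts, and Nap1l4, at the other, had 5097 to 6094. Between them Kcnq1, which encodes a potassium channel, had 0 counts in each library. Cdkn1c, a cell cycle inhibitor that Kcnq1ot1 is known to silence, had 10, 7, 12, 17 and 11 counts, and Phlda2, a placental growth restrictor, had 4, 2, 8, 4 and 2. Slc22a18, the third of these known targets, had 2, 11, 4, 4 and 4. The exons that Kcnq1 and Kcnq1ot1 share are part of a 1.2% overlap of Kcnq1ot1 with other genes, and reads there cannot be told apart by strand because the kit named in the labels (NEBNext Ultra RNA) does not mark it.

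**Figure D2:**
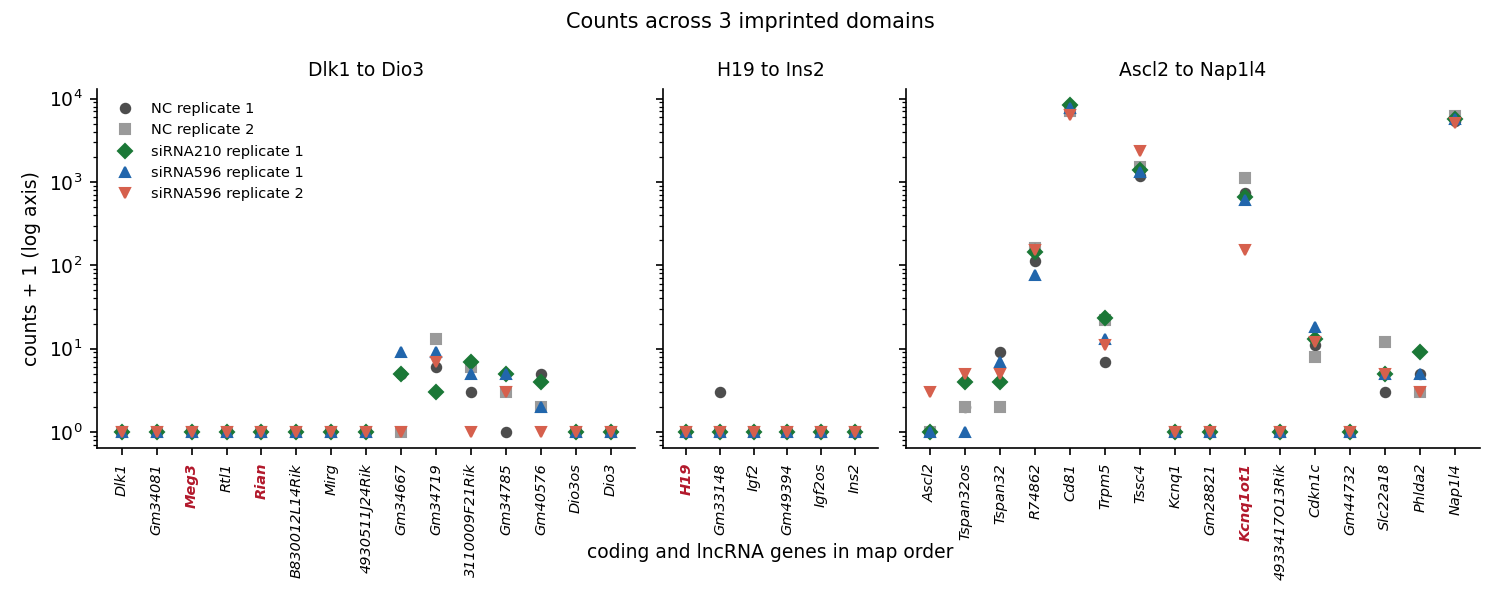
Counts plus 1 (log axis) of the coding and lncRNA genes of 3 imprinted domains, in map order, with 1 symbol per library and the lncRNAs studied in red. All points of Meg3, Rian and H19 lie on the baseline of 0 counts, while Kcnq1ot1 stands at 151 to 1111 counts between genes with few or no counts.

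To see whether the lncRNAs moved with the knockdown of GAS5, KD was compared with NC in edgeR's quasi-likelihood test with Benjamini-Hochberg adjustment, over 15867 genes with 4 libraries and 16142 with 5. Gas5 itself was only moderately lower with 4 libraries, at 75.4% of NC (95% interval 63.9% to 88.9%). For Gas5 the unadjusted P was 0.00377 and the adjusted P = 0.967 in edgeR. With 5 libraries Gas5 was at 122% (interval 49.6% to 300%, adjusted P = 0.963). Malat1, Neat1, Pvt1 and Kcnq1ot1 passed the filter on low counts, and the other 4 lncRNAs, at 0, did not. None of the 4 had an adjusted P under 0.05, with 4 or with 5 libraries, and the same was true of all genes (0% called in either fit, while DESeq2 called 1 gene with 4 libraries). At an unadjusted P under 0.05 edgeR gave 523 genes with 4 libraries, which is 3.3%, and 60 genes with 5. None of the 4 passed the study's criteria, an unadjusted P of 0.05 and a fold of 2, which 0.876% of genes passed with 4 libraries and 0.353% with 5. With 4 libraries 1 of the 4, Kcnq1ot1, had an unadjusted P under 0.05. KD and NC did not overlap in CPM for Malat1 and Kcnq1ot1, as for 32.8% of all genes with 4 libraries and 17.8% with 5.

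Malat1 stood at 1345 and 1414 CPM in NC, against 1280 with siRNA210 and 1305 with siRNA596 replicate 1. Both KD libraries were thus just below both NC libraries, at 92.8% and 94.6% of their mean. The group means were 1380 ± 48.5 CPM in NC and 1292 ± 17.9 in KD (SD, n = 2 each). The log2 fold change was -0.10 (standard error, SE, 0.08, adjusted P = 0.967), and its 95% interval runs from 83% to 105% of the NC level, so with these 4 libraries a change of 2-fold lies outside the interval. With all 5 libraries it was -0.49 (SE 0.56, adjusted P = 0.963), with an interval of 27.6% to 183%. With offsets for exonic length and GC content over the 5, Malat1 was at -0.35 (SE 0.37).

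Neat1 stood at 1042 and 913 CPM in NC, against 1121 with siRNA210 and 1016 with siRNA596 replicate 1. The KD range overlapped that of NC, since siRNA596 replicate 1 lay between the NC libraries. The means were 978 ± 91.2 CPM in NC and 1068 ± 74.5 in KD (SD, n = 2 each). The log2 fold change was 0.13 (SE 0.09, adjusted P = 0.967) with an interval of 94.4% to 126% of NC. With all 5 libraries its sign turned to -0.20 (SE 0.44, adjusted P = 0.963, interval 41% to 186%), which rests on the library labelled siRNA596 replicate 2. With offsets for exonic length and GC content over the 5, Neat1 was at 0.11 (SE 0.20).

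The ratio of Neat1 to Malat1 counts compares the neighbours within a library and needs no scaling between libraries. Their genes lie on the same strand, 22035 bases apart. The ratio was 0.775 in NC replicate 1, 0.646 in NC replicate 2, 0.876 with siRNA210 and 0.778 with siRNA596 replicate 1. It reached 1.17 in the library labelled siRNA596 replicate 2, the only one of the 5 with more reads on Neat1 than on Malat1. The siRNA210 library and siRNA596 replicate 1 were above both NC libraries, although siRNA596 replicate 1 and NC replicate 1 differed by less than the NC libraries did.

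Pvt1 (chr15:62037986-62378096, plus strand) is spliced, with 10 exons in its longest annotated transcript of 3319 bases and 6996 exonic bases over all transcripts. It stood at 27.9 and 25.3 CPM in NC, 26.7 with siRNA210, 23.8 with siRNA596 replicate 1 and 27.3 in the library labelled siRNA596 replicate 2. The groups overlapped, and the 5 libraries lay at 89.4% to 105% of the NC mean. The log2 fold change was -0.08 (SE 0.12, adjusted P = 0.977, interval 78.4% to 115% of NC) with 4 libraries and -0.04 (SE 0.21, adjusted P = 0.982, interval 68.6% to 138%) with 5. Its neighbour Myc, 47.6 kb away, had 3804 and 2918 counts in NC, 3578 with siRNA210, 3204 with siRNA596 replicate 1 and 4080 in that labelled siRNA596 replicate 2. In CPM, Myc stood at 108.2 and 76.07 in NC, 100 with siRNA210 and 89.55 with siRNA596 replicate 1. The library labelled siRNA596 replicate 2 had 154.5. The ratio of Pvt1 to Myc counts was 0.258 and 0.333 in NC, 0.267 with siRNA210 and 0.265 with siRNA596 replicate 1, and it was 0.177 in the library labelled siRNA596 replicate 2. With 4 libraries both KD ratios lay between the NC ratios. A processed pseudogene, H2afy3, lies in Pvt1 exons and had 12, 36, 22, 19 and 2 counts, so reads on the exonic bases they share are uncertain.

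Kcnq1ot1 had the lowest log2 fold change of the 4. It stood at 20.8 and 29.0 CPM in NC, 18.4 with siRNA210 and 17.1 with siRNA596 replicate 1. The NC libraries differed from each other by 1.39-fold, more than the lower of them differed from either KD library. The means were 24.9 ± 5.74 CPM in NC and 17.7 ± 0.93 in KD (SD, n = 2 each), and the log2 fold change was -0.49 (SE 0.17, interval 54.9% to 92% of NC). Its unadjusted P was 0.015 and its adjusted P = 0.967 in edgeR. The size of the value depended on the NC libraries, since without NC replicate 2 the log2 fold change was -0.23 and without NC replicate 1 it was -0.71. Without siRNA210 it was -0.55 and without siRNA596 replicate 1 it was -0.44. With all 5 libraries it was -0.86 (SE 0.51, adjusted P = 0.963, interval 23.1% to 132%), and with offsets for exonic length and GC content over the 5 it was -0.15.

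**Figure D3:**
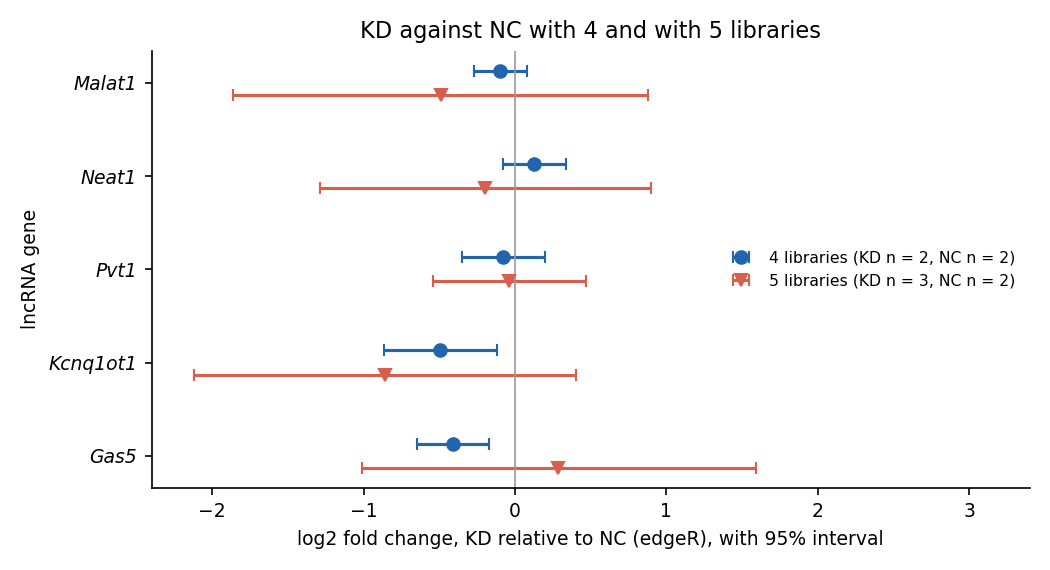
Log2 fold change of KD relative to NC from edgeR, with 95% intervals, for the 4 detected lncRNAs and Gas5, with 4 libraries (circles) and with 5 (triangles). With 4 libraries the intervals of Malat1, Neat1 and Pvt1 include 0 and those of Kcnq1ot1 and Gas5 lie below it, and with 5 libraries all 5 intervals include 0.

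The library labelled siRNA596 replicate 2 is described by its values alone, with no test, since it is a single library. Malat1 stood there at 361 CPM, 26.2% of the NC mean, and Kcnq1ot1 at 5.72 CPM, 23.0%. Neat1 stood at 423 CPM, 43.3% of the NC mean. Pvt1 stood at 103% of it and Gas5 at 215%. Malat1, Neat1 and Kcnq1ot1 were thus below every other library, Pvt1 was inside the range of the other 4, and Gas5 was above every other library. As log2 ratios to the NC mean these were -1.93 for Malat1, -1.21 for Neat1, -2.12 for Kcnq1ot1, 0.04 for Pvt1 and 1.11 for Gas5. In siRNA596 replicate 1, which carries the same siRNA in its label, they ran from -0.54 (Kcnq1ot1) to 0.06 (Neat1).

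**Figure D4:**
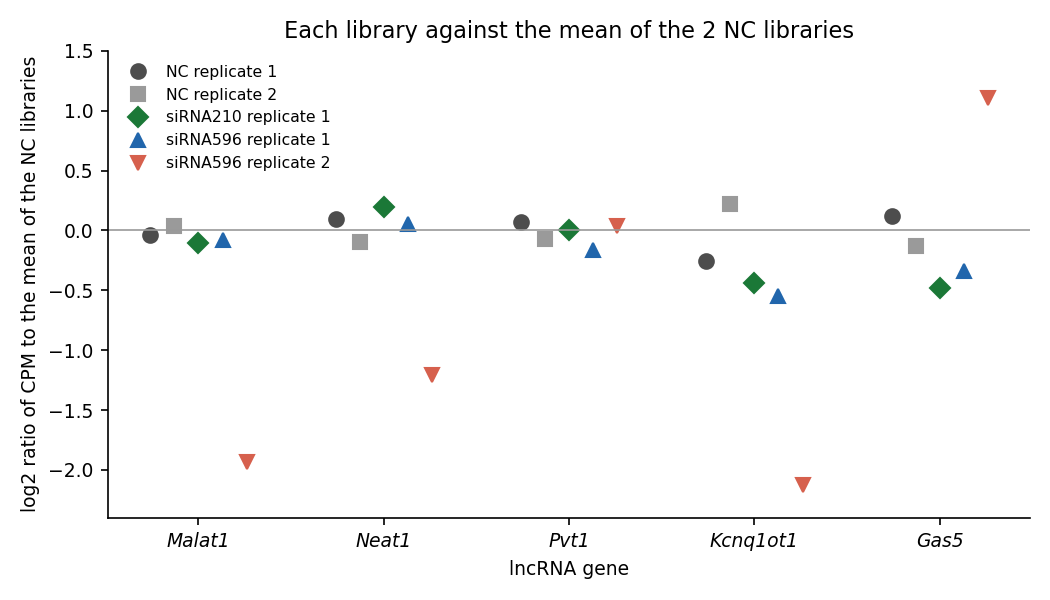
Log2 ratio of the CPM in each library to the mean of the 2 NC libraries, for the 4 detected lncRNAs and Gas5. The library labelled siRNA596 replicate 2 lies at -1.93, -1.21 and -2.12 for Malat1, Neat1 and Kcnq1ot1, at 0.04 for Pvt1 and at 1.11 for Gas5, while the other 4 libraries stay between -0.54 and 0.22.

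The ratio of this library to the other 4 was set beside exonic length, since it moved with length over all genes of at least 5 CPM. Here the log2 ratio was taken after adding 0.5 CPM, over 10568 genes split into 10 classes by length. Its median fell from 1.21 in the class of the shortest genes (57 to 1748 bases) to -1.05 in the class of the longest (10226 to 123179 bases). Malat1 and Pvt1 share a class, that of 6460 to 7937 bases, with exonic lengths of 6983 and 6996 bases. The median of that class was -0.46, with 5% to 95% of its genes between -1.76 and 0.87. Malat1, at -1.89, lay below this range and Pvt1, at 0.07, lay inside it, so 2 lncRNAs of nearly the same exonic length stood on opposite sides of their median. In single transcripts they differ more, as Malat1-201 has 6983 bases in 1 exon and the longest Pvt1 transcript has 3319.

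Neat1 and Kcnq1ot1 fall among the longest genes. The 315 genes of 15000 bases or more had a median log2 ratio of -1.27, with 5% to 95% between -2.23 and -0.17. Neat1, at -1.27, lay at this median and Kcnq1ot1, at -1.81, inside the range. The place of Neat1 rests on its long form, and the counts do not separate its forms. The annotated Neat1-202, which has AATAAA near its end, has 3004 bases. In the class of 2564 to 3235 bases the median was 0.44 and the 5th percentile -0.78, above the value of Neat1. Gas5 (3760 exonic bases) stood at 1.29, above the median of 0.24 of its class and inside its range of -1.05 to 1.37. Whether length or RNA quality plays a part in these values was not tested, and the library cannot be told apart from its culture.

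**Figure D5:**
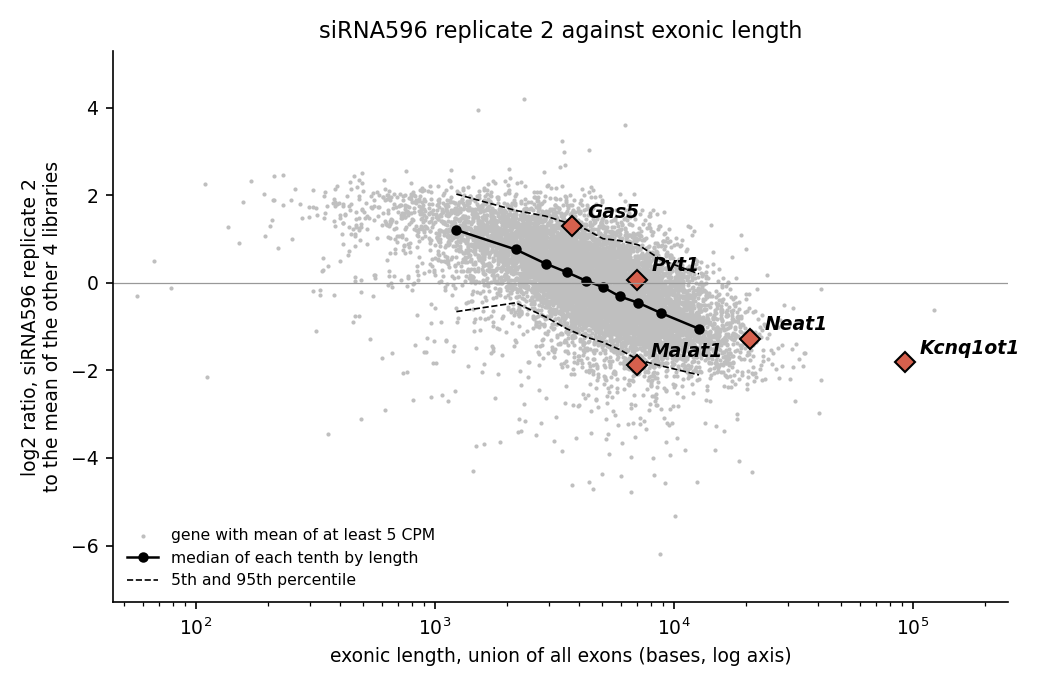
Log2 ratio of the library labelled siRNA596 replicate 2 to the mean of the other 4 libraries against exonic length (log axis), with 1 grey point for each of 10568 genes, the median of each of the 10 length classes (line) and its 5th and 95th percentiles (dashed). Malat1 at -1.89 and Pvt1 at 0.07 have nearly the same exonic length, Neat1 and Kcnq1ot1 lie with the longest genes, and Gas5 lies above its median.

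Other lncRNAs and genes of proteins related to the 8 were described from lists. None of the genes in these lists passed the study's criteria with 4 libraries, beside the 0.876% of all genes that did, and the median log2 fold change of all genes was -0.002. The 22 genes tested from the list of paraspeckle proteins had a median of -0.07, with 5 above 0. Nono stood at 552 and 563 CPM in NC against 566 and 562 in the KD group of the 4 libraries, and its log2 fold change was 0.01 (SE 0.08). Sfpq stood at 331 and 386 CPM in NC against 302 and 355 in the same KD group, at -0.13 (SE 0.11). The highest and the lowest of this list were Cirbp, a cold-inducible RNA-binding protein, at 0.15 and Rbmx, a splicing regulator, at -0.20. The 21 nuclear speckle genes had a median of -0.04, with 7 above 0, and ran from Sf3b1, a core of the U2 snRNP, at 0.06 down to Pnn, a speckle and desmosome protein, at -0.13 among those above 5 CPM.

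Among 14 other imprinted genes tested, 8 were above 0 and the median log2 fold change was 0.04, and 11 of the 29 listed had no count in any library. Plagl1, an imprinted zinc finger gene, had 402 and 225 counts in NC against 375 and 391 in that KD group, with a log2 fold change of 0.31 (SE 0.27), and 76 in the library labelled siRNA596 replicate 2, which this value leaves out. Peg10, a retrotransposon-derived gene expressed from the paternal copy, had 6481 and 10436 counts in NC against 6467 and 6418 in the KD group of the 4 libraries, with a log2 fold change of -0.34 (SE 0.15, adjusted P = 0.967 in edgeR). It had 2509 in the library labelled siRNA596 replicate 2. NC replicate 2 was the high library for Peg10, as it was for Kcnq1ot1. Airn, which like Kcnq1ot1 is a long antisense RNA that silences its neighbours, had 111, 147, 110, 109 and 29 counts. In the library labelled siRNA596 replicate 2 it too was the lowest, and so was its target Igf2r, with 1275 counts against 5381 to 5730. Whether reads of Igf2r were counted for Airn was not tested, and the kit named in the labels does not mark the strand. The 17 imprinting and chromatin regulators had a median of -0.02, from Jarid2, a partner of PRC2, at 0.15 to Tet3, a 5-methylcytosine oxidase, at -0.18.

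Among 10 other lncRNAs tested 3 were above 0, with a median log2 fold change of -0.06. Ftx, an lncRNA of the X inactivation centre, had 242 and 285 counts in NC against 156 and 203 in the KD group of the 4 libraries. With these libraries its value was -0.51 on the log2 scale (SE 0.21, adjusted P = 0.967 in edgeR), and the library labelled siRNA596 replicate 2 had 75 counts. Mir17hg, the host of the miR-17 cluster, was highest at 0.03. Firre and Tug1, both nuclear lncRNAs, stood at 45.15 and 90.21 CPM in NC replicate 1. In the library labelled siRNA596 replicate 2 they stood at 21.13 and 63.59 CPM. The 14 snoRNA host lncRNAs tested, Gas5 among them, had a median of -0.002 with 4 libraries, with 7 above 0. Among those of at least 5 CPM, Snhg20 was highest at 0.09 and Gas5 lowest at -0.41. In the library labelled siRNA596 replicate 2 their median log2 ratio to the other 4 libraries was 1.27, against -1.54 for the 4 detected lncRNAs and -0.33 for the 10 other lncRNAs.

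Of the 37 nearest protein-coding genes (3 on each side of each lncRNA), 18 were tested, 9 of them were above 0 and the median log2 fold change was 0.004. Among those of at least 5 CPM, Mrpl23 beside H19 was highest at 0.17 and Fam84b, on the Myc side of Pvt1, lowest at -0.41 (SE 0.20, adjusted P = 0.967 in edgeR) with 214 and 232 counts in NC against 156 and 171 in the KD group of the 4 libraries. Frmd8 (4.22 kb from Neat1) had 2747 and 3225 counts in NC against 3247 and 2912 in that KD group, and 1876 in the library labelled siRNA596 replicate 2. It was not low there to the extent of Neat1, as it stood at 71.1 CPM against 78.1 to 90.8 in the other libraries.

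The genes most like each lncRNA over the 5 libraries were found by the root mean square difference of centred log2 CPM among 10574 genes, as a description with no test. Malat1 was nearest to Ubn2, a chromatin assembly factor gene (0.029), and Nup153, a nuclear pore gene (0.030). Neat1 was nearest to Adam9, a metalloprotease gene, and Sec24d, a COPII coat gene, both at 0.030. Pvt1 was nearest to the antisense gene Gm37422 (0.028) and to Trim41 (0.033), and Kcnq1ot1 to Btaf1, a regulator of TBP, and Srcap, a chromatin remodeller, both at 0.118. These genes follow the level in the library labelled siRNA596 replicate 2, as Ubn2 had 68.4 to 78.4 CPM in the other libraries and 18.9 in that one, and Trim41 had 58.4 to 64.1 CPM in all 5.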

How the data were processed

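The authors deposited raw counts per gene for 5 libraries, made with Trimmomatic, HISAT2 2.1.0 on GRCm38 and featureCounts 2.0.1 on the Ensembl annotation, without normalization. SAMtools 1.7 and DESeq2 1.26.0 are also named in the submitters' processing notes. The strand setting and whether multimapping reads were kept are not given in the sources used here. The authors' deposited table of the KD comparison holds log2 fold changes, standard errors, Wald statistics and P-values, which were not used, and a mean signal per gene (deposited, the mean of counts over size factors), which served only to find its libraries.

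Identifiers were named from GENCODE vM21 (99.4% matched). Tests were run with edgeR 4.0.16 in R 4.3.3 (filterByExpr, TMM, glmQLFit, 0.05 Benjamini-Hochberg), with 2 KD and 2 NC libraries first and all 5 second. Alternatives were DESeq2 1.42.0, its size factors, library size only, other filters, each library left out, siRNA596 against NC with the replicate block and without it, and offsets for exonic length and GC content (mgcv 1.9.3). The edgeR fits were first tested on simulated data, with a spread close to that of the 4 libraries (dispersion 0.0129). It was well below that of the 5 libraries (0.145), so the simulation does not cover the fit with 5. The precision is set by 2 to 3 libraries a group, and siRNA210 has 1. Intervals and floors cover counting error only, except those of fold changes, which cover the spread between libraries. Figures were drawn with matplotlib 3.10.9.

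The members, lists and tests were chosen with earlier results of these data known. Named genes are the 8 lncRNAs, Gas5, their best known partners and neighbours (Igf2, Dlk1, Mirg, Rtl1, Kcnq1, Cdkn1c, Phlda2, Myc, Nono and Sfpq), the highest and lowest log2 fold change of each list and of the nearest coding genes at a mean of at least 5 CPM, and the 2 genes most like each lncRNA. Other genes were named after their values were seen. Lists of markers of other cells were checked too: with 4 libraries 0 of 2 astrocyte, 2 oligodendrocyte, 3 microglia, 3 neural progenitor, 2 endothelium and 3 neuron genes tested passed the study's criteria. A gene among the nearest coding genes is not reported here.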

Additional observations from a re-analysis of the deposited data

Results flagged for a closer look

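Gas5 was higher in the library labelled siRNA596 replicate 2 than in either NC library, with a log2 ratio to their mean of 1.106, in data that the comparison of 4 libraries does not use. Malat1, Neat1 and Kcnq1ot1 stood on the other side of the NC libraries there, with log2 ratios of -1.93, -1.21 and -2.12, and Pvt1 stood at 0.04.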

How the results depend on the processing

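With 4 libraries 139 genes passed the study's criteria and 0 an adjusted P of 0.05 in edgeR. The first count was 57 with all 5 libraries, 67 by DESeq2, 282 with no filter, 73 with at least 10 counts in every library, 52 with offsets for exonic length and GC content over all 5, and 125 to 374 with each library left out, the 374 without NC replicate 1. The second was 1 by DESeq2 and 0 to 1 with each library left out, the 1 without siRNA210 replicate 1. Where 1 library is left out, the lone library of a group is assumed to vary like the others. Neat1 turned from 0.127 on the log2 scale to -0.196 with all 5 libraries, but stood at 0.108 with the offsets over all 5. Gas5 turned from -0.408 to 0.287 with all 5 and to 0.546 with the offsets. Pvt1, at -0.0782, turned to 0.000842 without siRNA596 replicate 1 (its range with each library left out was -0.166 to 0.000842) and to 0.212 with the offsets. The cause of these turns was not tested. Malat1 and Kcnq1ot1 stayed below 0 under every alternative run. For siRNA596 against NC (2 libraries each) 41 genes passed without and 426 with the replicate block. There Neat1 stood at -0.44 without the block and -0.569 with it, and Gas5 at 0.564 and 0.394. Deviations of libraries with the same number correlated at r = 0.0967 over 15827 genes, so the numbers were not taken as a pairing. None of Malat1, Neat1, Pvt1, Kcnq1ot1 and Gas5 passed an adjusted P of 0.05 under any alternative run.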
